A study of Mus musculus with 4 samples.

Results

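The Hox genes of hindlimb muscle were described in tibialis anterior (TA), a fast muscle at the front of the lower leg. Every protein-coding gene whose symbol is Hoxa, Hoxb, Hoxc or Hoxd followed by a number was taken, which gave 39 of the 57180 genes measured (21400 of them protein-coding). RNA of 2 control and 2 exercise libraries was sequenced, and the labels number the libraries of each group 1 and 2. The mice were wild-type male C57BL/6J by the study's methods, 3 weeks of age when the study began and 8 weeks when muscle was taken, with no transgene in either group. Exercise mice ran on a treadmill for 4 weeks, in sessions of 45 min a day at 12 m/min, 5 times a week. A familiarization of 5 days came before that, starting from 8 m/min and 30 min a day. Control mice were sedentary and of the same age. No source used here says whether each library came from a single mouse, so the p-values measure only the spread between these libraries, which may be technical.

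Hox genes encode homeodomain transcription factors that give cells of the embryo their position along the body axis. In mammals they lie in the clusters HoxA, HoxB, HoxC and HoxD, and the genes of the same number in different clusters are paralogs that descend from the same ancestral gene. Within a cluster, low numbers are switched on early and act toward the head, while high numbers are switched on late, act toward the tail and pattern the limb along its length. Mesenchymal and muscle cells of the adult keep part of the Hox pattern of the region they came from. Polycomb proteins keep Hox genes silent, trithorax proteins keep them active, and homeodomain proteins of the Pbx, Meis and Pknox families bind DNA together with Hox proteins.

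The values are TPM (transcript abundance corrected for length, with the same total in every library), so levels of different genes can be compared. The depth of the libraries is unknown. The 50 genes of the highest mean TPM held 62.1 and 59.0% of the TPM in the control libraries and 50.5 and 45.8% in the exercise libraries. With a fixed total, the median of all 13288 genes tested lay 0.53 above 0 on the log2 scale in exercise, and at 0.00 after median-of-ratios scaling, which brings the libraries to the same typical gene. The sex-linked genes went against the male sex stated for both groups. Xist, transcribed from the inactive X chromosome of females, stood at 14.91 and 11.72 TPM in control libraries against 0.00 and 0.07 TPM after exercise. Eif2s3y, a Y-linked gene, stood at 0.30 and 0.00 TPM in control libraries against 16.68 and 25.17 TPM after exercise, and Ddx3y, Kdm5d and Uty were lower in both control libraries than in either exercise library but not at 0. Exercise and this difference cannot be told apart in any comparison of the groups, and no library can be left out to separate them. The fast myosin Myh4 stood between 2441 and 8092 TPM in all libraries, as in fast muscle.

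Of the 39 Hox genes, 24 reached 1 TPM or more in at least 2 of the 4 libraries and 15 did not. The 24 comprised 7 of the 11 HoxA genes, 7 of the 10 HoxB genes, 6 of the 9 HoxC genes and 4 of the 9 HoxD genes. All genes of the paralog numbers 4, 7, 8 and 10 were among them, and none of the 6 genes of numbers 12 and 13 was. Only 3 genes had a mean above 10 TPM: Hoxc10 (20.99 TPM over the 4 libraries), Hoxd8 (19.8 TPM) and Hoxa7 (10.1 TPM). Next came Hoxb7 (7.25 TPM), and 20 of the 24 had a mean under 5 TPM. Hox10 proteins pattern the lumbar region and the upper part of the limb, and Hoxc10 is known for expression in the hindlimb and not the forelimb. Hoxc10 and Hoxd8 changed places between libraries of the same group, so their order did not go beyond the spread.

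**Figure D1:**
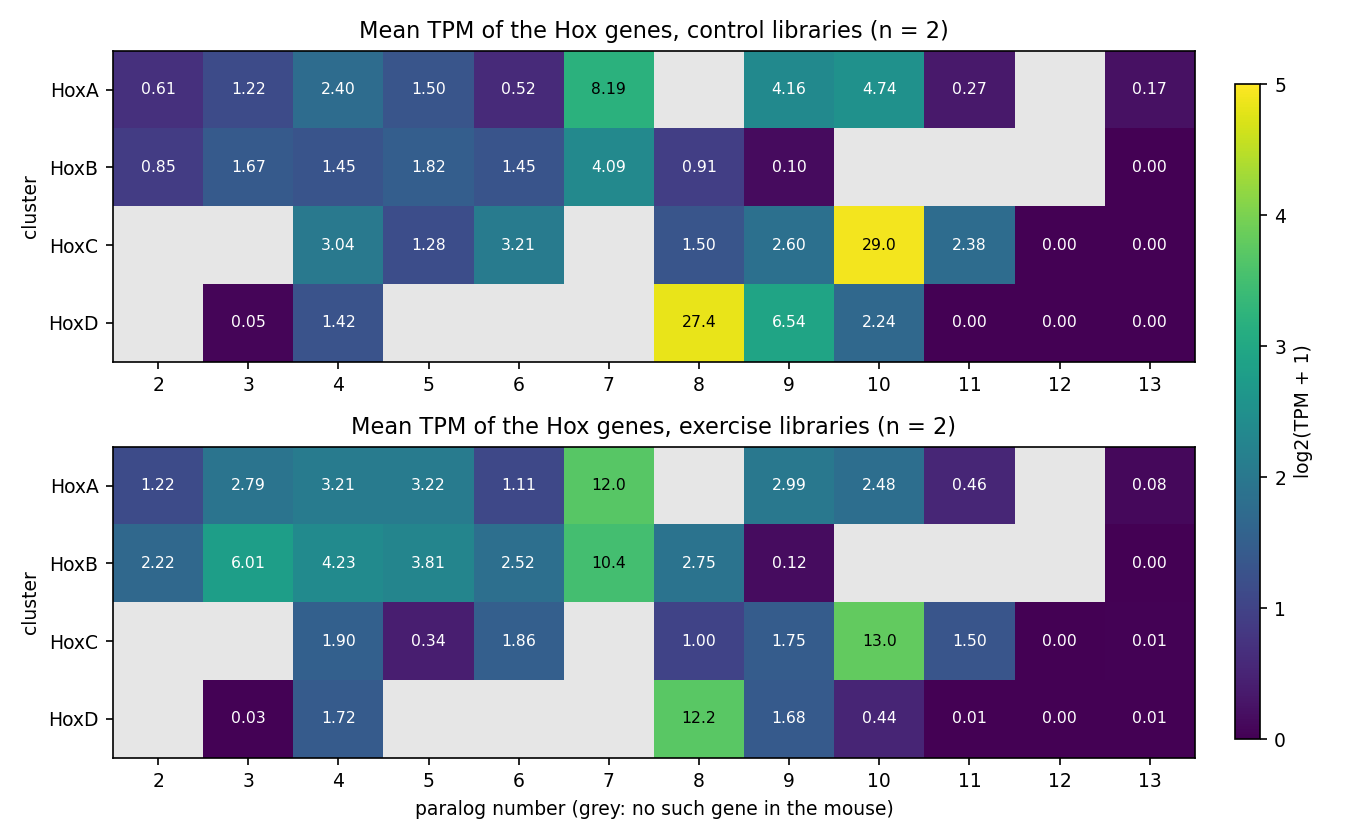
Mean TPM of the Hox genes of paralog numbers 2 to 13 in the 2 control (top) and the 2 exercise libraries (bottom), with clusters as rows and paralog numbers as columns. Numbers are mean TPM, colour is log2(TPM + 1), and grey marks a number that the cluster lacks. Hoxc10 (29.0 TPM) and Hoxd8 (27.4 TPM) stand out in control, while in exercise Hoxc10, Hoxd8 (12.2), Hoxa7 (12.0) and Hoxb7 (10.4 TPM) are close to each other.

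The make-up of the Hox transcripts differed between the groups. On the deposited TPM their sum differed less between the groups than between the control libraries, which does not carry over to scaled values. The summed TPM of the 39 genes was 108.3 and 126.1 in control and 97.0 and 104.3 in exercise libraries, so both exercise sums lay just under both control sums. Unlike the shares that follow, this sum depends on the scaling of a library. The median-of-ratios factors, by which TPM is divided, were 0.77 and 0.84 in control and 1.20 and 1.31 in exercise libraries. Such scaling raises the control sums and lowers the exercise sums, so the gap between the groups becomes wider. HoxB genes made up 10.5% of that sum in each control library, and 30.1 and 33.5% in the exercise libraries. HoxA genes made up 21.4 and 20.0% in control and 33.3 and 28.6% in exercise libraries. HoxC genes went the other way, with 35.8 and 37.4% in control and 25.8 and 17.0% in exercise libraries, as did HoxD genes, with 32.2 and 32.1% in control and 10.9 and 20.8% in exercise libraries. No cluster had overlapping shares. A share of the Hox total is not affected by how a library is scaled. With 2 libraries against 2, the smallest two-sided p of an exact permutation test is 0.333, so no share could pass a threshold.

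The shares also differed by paralog number. Numbers 1 to 3 made up 4.06 and 4.22% of the Hox TPM in control and 12.4 and 14.9% in exercise libraries. Numbers 9 to 13 made up 47.0 and 42.4% in control and 27.0 and 21.9% in exercise libraries. The sum of numbers 9 to 13 was therefore 11.6 and 10.1 times that of numbers 1 to 3 in control, and 2.18 and 1.47 times in exercise libraries. Taken number by number, the shares of 2, 3, 4, 5 and 7 were higher in both exercise libraries, those of 8, 9 and 10 were lower in both, and those of 6, 11 and 13 overlapped. Number 12 was at 0 throughout. Without Hoxc10 and Hoxd8, an alternative chosen after seeing the data, HoxB still held 20.2 and 20.4% in control and 40.1 and 44.8% in exercise libraries, and numbers 9 to 13 held 40.9 and 35.8% in control and 14.2 and 16.3% in exercise libraries. Without them the HoxA shares overlapped (41.1 and 38.7% in control, 44.4 and 38.3% in exercise libraries).

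**Figure D2:**
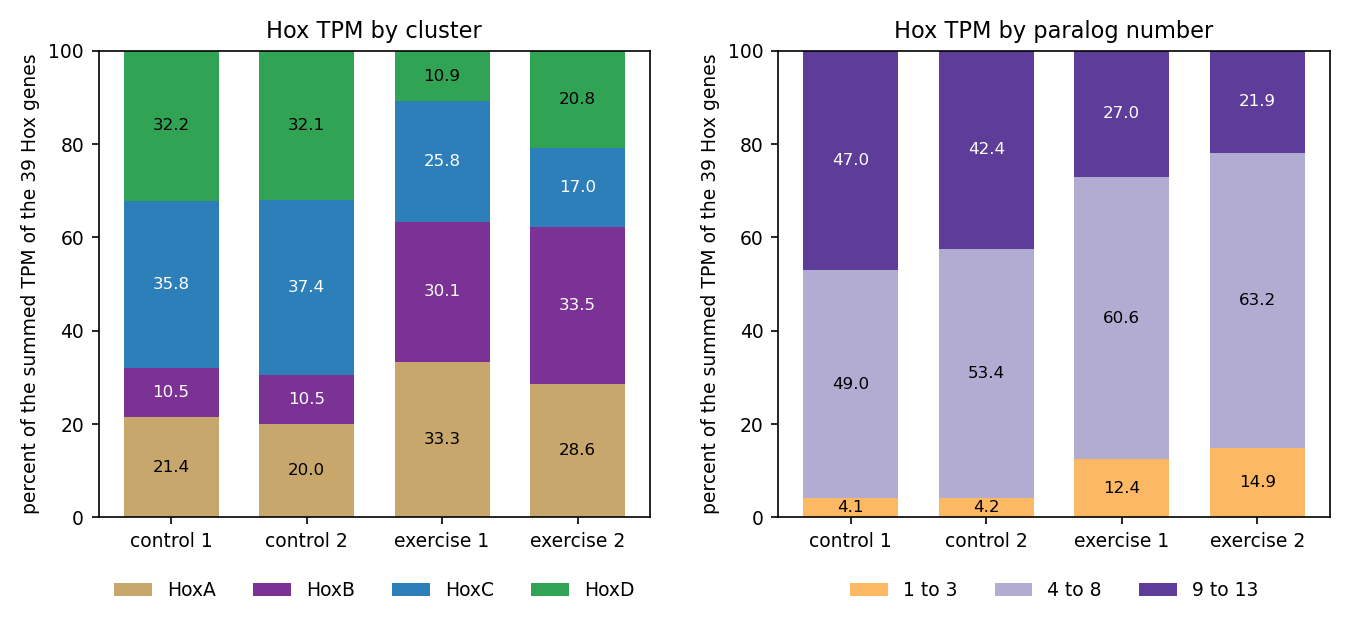
Share of the summed TPM of the 39 Hox genes held by each cluster (left) and by paralog numbers 1 to 3, 4 to 8 and 9 to 13 (right), in percent, with 1 bar per library. HoxB rises from 10.5% in each control library to 30.1 and 33.5% in the exercise libraries, and numbers 9 to 13 fall from 47.0 and 42.4% to 27.0 and 21.9%.

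Promoters are shown for 3 neighbours of the HoxD cluster that were lower in exercise and 2 genes of the HoxB cluster that were higher. RefSeq promoter windows (GRCm38.p6) could be matched to 22 of the 39 Hox genes, 12 of them among the 24. Each sequence is the 250 bases before the start of the gene, on the plus strand: Hoxd8 at chr2:74704365-74704614, Hoxd9 at chr2:74697513-74697762, Hoxd10 at chr2:74691641-74691890, Hoxb4 at chr11:96318017-96318266 and Hoxb8 at chr11:96281655-96281904. Capitals mark matches, on either strand, to the Hox and Pbx motif TGATNNAT, the TATA box TATAAA and the CCAAT box CCAAT.
Hoxd8: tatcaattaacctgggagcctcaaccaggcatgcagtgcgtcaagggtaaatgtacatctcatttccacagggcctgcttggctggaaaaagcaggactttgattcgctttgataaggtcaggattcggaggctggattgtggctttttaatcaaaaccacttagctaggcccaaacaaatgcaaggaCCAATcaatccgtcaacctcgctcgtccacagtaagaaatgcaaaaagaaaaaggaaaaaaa
Hoxd9: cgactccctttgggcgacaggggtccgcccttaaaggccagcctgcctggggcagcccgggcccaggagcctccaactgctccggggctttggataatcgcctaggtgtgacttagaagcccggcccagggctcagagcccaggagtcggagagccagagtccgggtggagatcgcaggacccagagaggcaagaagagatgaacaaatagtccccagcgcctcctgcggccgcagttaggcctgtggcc
Hoxd10: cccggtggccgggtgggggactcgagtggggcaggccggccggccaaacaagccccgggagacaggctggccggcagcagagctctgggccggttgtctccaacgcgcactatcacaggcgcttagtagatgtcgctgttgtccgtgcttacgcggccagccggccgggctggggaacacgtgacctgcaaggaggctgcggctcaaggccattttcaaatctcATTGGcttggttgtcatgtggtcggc
Hoxb4: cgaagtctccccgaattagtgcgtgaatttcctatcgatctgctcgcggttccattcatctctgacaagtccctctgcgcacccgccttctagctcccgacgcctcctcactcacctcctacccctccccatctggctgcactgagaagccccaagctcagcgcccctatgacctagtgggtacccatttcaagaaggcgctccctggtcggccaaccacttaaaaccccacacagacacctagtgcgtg
Hoxb8: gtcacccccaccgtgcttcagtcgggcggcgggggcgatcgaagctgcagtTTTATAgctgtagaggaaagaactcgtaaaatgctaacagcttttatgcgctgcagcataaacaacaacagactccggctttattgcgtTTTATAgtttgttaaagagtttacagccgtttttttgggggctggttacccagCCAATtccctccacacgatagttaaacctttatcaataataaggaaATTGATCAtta
Hoxb8 held 1 match to TGATNNAT, 2 to TATAAA and 1 to CCAAT. Hoxd8 and Hoxd10 held 1 CCAAT each, and Hoxd9 and Hoxb4 held none of these letters. Over the 24 Hox windows, 4 held TGATNNAT, 4 held TATAAA and 14 held CCAAT. Of all 32851 windows of that length, 7.68% held TGATNNAT, 12.4% held TATAAA and 33.8% held CCAAT. The Hox windows held a median of 12.5 CG dinucleotides, against 6 over all windows, and the windows of genes that were higher (4 windows of 4 genes) and lower (5 windows of 4 genes) both had a median of 13. A match is a description and does not show that a factor bound there.

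Exercise was compared with control over all 13288 genes at 1 TPM or more in at least 2 libraries, with limma on log2(TPM + 1) and a Benjamini-Hochberg adjusted p under 0.05. Of the 24 Hox genes, 10 were higher in exercise (41.7%), beside 55.3% of all genes tested, and 5 were lower (20.8%), beside 6.19% of all genes tested. The median log2 fold change of the 24 was 0.25, and that of all genes 0.53. The groups did not overlap for 12 Hox genes that were higher and 8 that were lower, beside 72.8 and 10.5% of all genes. The filter let 2 genes, Hoxb2 among them, through by their exercise libraries alone and Hoxd10 by its control libraries alone, so these were bound to differ. With median-of-ratios factors 3 of the 24 were higher, beside 10.6% of all genes, and 8 were lower, beside 16.8%. The 3 were Hoxb3, Hoxb4 and Hoxb7, and the 8 were the 5 of the unscaled TPM together with Hoxc4, Hoxc9 and Hoxc11. By paralog number, 3 of the 4 genes numbered 1 to 3, 7 of the 13 numbered 4 to 8 and 0 of the 7 numbered 9 to 13 were higher, while 0, 1 and 4 were lower. All 7 genes numbered 9 to 13 had a fold change below 0, also with median-of-ratios factors, with quantile normalization and when the 50 most abundant genes were taken out of the total. The median of all genes tested was 0.53 on the deposited TPM and 0.00, 0.08 and 0.22 in these settings. The share of all genes below 0 was not computed. In whole muscle, fewer cells of a type and less RNA per cell cannot be told apart.

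**Figure D3:**
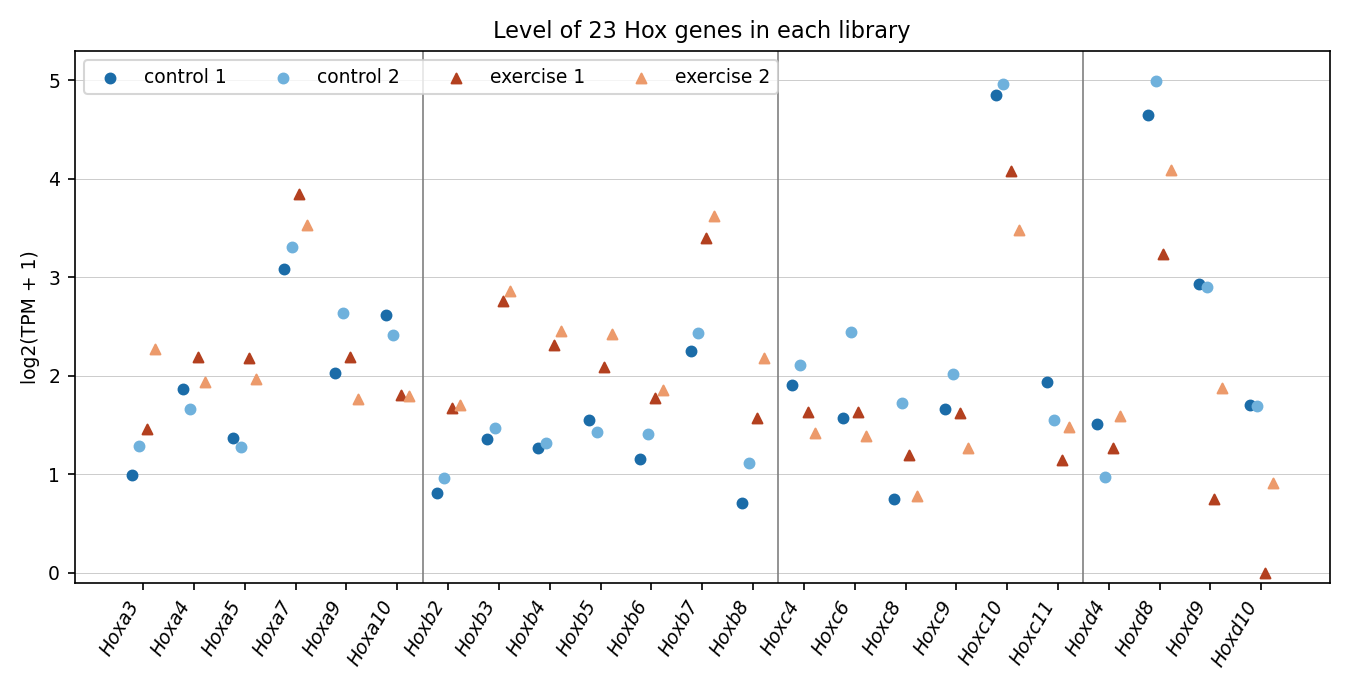
Level of 23 of the 24 Hox genes as log2(TPM + 1) in each of the 4 libraries (circles for control, triangles for exercise), ordered by cluster and paralog number, with vertical lines between clusters. Every HoxB gene shown sits higher in both exercise libraries, and Hoxa10, Hoxc4, Hoxc9, Hoxc10, Hoxc11, Hoxd8, Hoxd9 and Hoxd10 sit lower in both.

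All 7 HoxB genes tested were higher in exercise. Hoxb3, which acts in the hindbrain and the pharyngeal arches of the embryo, stood at 1.56 and 1.77 TPM in control libraries against 5.77 and 6.26 TPM after exercise. That is a 3.61-fold difference of the means, with a log2 fold change of 1.40 (SE 0.16, adjusted p = 0.0028). Hoxb4, known for expanding blood stem cells, stood at 1.40 and 1.50 TPM in control libraries against 3.98 and 4.48 TPM after exercise. Its log2 fold change was 1.09 (SE 0.16, adjusted p = 0.0035). Hoxb7, the most abundant HoxB gene, stood at 3.77 and 4.41 TPM in control libraries against 9.52 and 11.28 TPM after exercise, with a log2 fold change of 1.16 (SE 0.16, adjusted p = 0.0032). The libraries of a group were close for Hoxb3, Hoxb4 and Hoxb7, and the exercise values were more than any control value. These 3 genes were called in all 15 alternatives of the processing. After median-of-ratios scaling their log2 fold changes were 0.92, 0.64 and 0.61.

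The other HoxB genes were also higher in both exercise libraries, but their calls were lost after median-of-ratios scaling. Hoxb2, a gene of the hindbrain segments, stood at 0.76 and 0.95 TPM in control libraries against 2.18 and 2.26 TPM after exercise (log2 fold change 0.80, adjusted p = 0.0083, and 0.43 after scaling). As it passed the filter by its exercise libraries alone, Hoxb2 was bound to differ. Hoxb5, which is expressed in enteric neurons, stood at 1.94 and 1.70 TPM in control libraries against 3.26 and 4.37 TPM after exercise (0.76, adjusted p = 0.013, and 0.30 after scaling). Hoxb6, a gene of the trunk and limb bud mesoderm, stood at 1.23 and 1.66 TPM in control libraries against 2.43 and 2.62 TPM after exercise (0.53, adjusted p = 0.035, and 0.12 after scaling). Hoxb8, which marks a lineage of microglia in the mouse, stood at 0.64 and 1.17 TPM in control libraries against 1.97 and 3.52 TPM after exercise (0.96, adjusted p = 0.019, and 0.58 after scaling). Hoxb8 had the widest gap between exercise libraries of these genes. Without exercise replicate 2, where 19.7% of all genes were higher and 3.09% lower, Hoxb3, Hoxb4 and Hoxb7 were still called and Hoxb2, Hoxb5, Hoxb6 and Hoxb8 were not. In a GENCODE annotation of GRCm38, 52.9% of the exon bases of Hoxb3 and 27.3% of those of Hoxb2 overlapped the antisense gene Hoxb3os, which stood at 2.03 and 3.10 TPM in control libraries against 4.57 and 3.89 TPM after exercise. If reads were counted without strand, Hoxb2 and Hoxb3 cannot be told apart from Hoxb3os there. For Hoxb4 and Hoxb7 no such overlap was found.

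HoxA changed in both directions, with Hoxa5 and Hoxa7 higher in exercise and Hoxa10 lower. Hoxa5, needed for the lung and the cervical skeleton, stood at 1.59 and 1.42 TPM in control libraries against 3.54 and 2.90 TPM after exercise (log2 fold change 0.75, SE 0.17, adjusted p = 0.010). Hoxa7, the third by mean TPM over all libraries, stood at 7.49 and 8.89 TPM in control libraries against 13.43 and 10.54 TPM after exercise (0.49, SE 0.17, adjusted p = 0.044). The groups did not overlap for either gene, but both calls were lost after median-of-ratios scaling (0.31 and -0.083), where Hoxa7 changed sign. Hoxa3, a gene of the thymus and parathyroid, stood at 0.99 and 1.44 TPM in control libraries against 1.75 and 3.84 TPM after exercise (0.73, adjusted p = 0.065). Hoxa4, which lies between Hoxa3 and Hoxa5, stood at 2.64 and 2.16 TPM in control libraries against 3.58 and 2.84 TPM after exercise (0.31, adjusted p = 0.17, and -0.16 after scaling). Neither of these passed the test. For Hoxa7, 20.4% of the exon bases overlapped the antisense gene Hoxaas3, which was at 1.28 TPM or less in every library.

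Toward the other end of HoxA the values were lower in exercise or overlapped. Hoxa10, a gene of the lumbar region and thigh that is also expressed in satellite cells of mouse hindlimb muscle, stood at 5.14 and 4.33 TPM in control libraries against 2.49 and 2.48 TPM after exercise. Its log2 fold change was -0.72 (SE 0.16, adjusted p = 0.010), and -1.20 after median-of-ratios scaling. The call was lost without exercise replicate 2 (-0.71, adjusted p = 0.062), where a single exercise library is assumed to vary like the others. Hoxa9, known in aged satellite cells of the mouse, stood at 3.08 and 5.23 TPM in control libraries against 3.58 and 2.40 TPM after exercise, which overlap (-0.35, adjusted p = 0.26). The ratio of exercise to control means was 2.14 for Hoxa5 and 0.52 for Hoxa10.

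HoxC had 1 called gene, Hoxc10, and all 6 genes tested had a fold change below 0, beside a median of 0.53 over all genes. Hoxc10 stood at 27.81 and 30.13 TPM in control libraries against 15.87 and 10.13 TPM after exercise. Both exercise values were well under the control values, with a log2 fold change of -1.13 (SE 0.21, adjusted p = 0.0061), and -1.73 after median-of-ratios scaling. This call held in all 15 alternatives. Hoxc10 made up 25.7 and 23.9% of the Hox TPM in control and 16.4 and 9.72% in exercise libraries. On the GRCm38 annotation, 8.7% of its exon bases were shared on the same strand with Hoxc5, which stood at 0.61 and 1.95 TPM in control libraries against 0.34 TPM in each exercise library.

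The remaining HoxC genes did not pass the test on the deposited TPM. Hoxc4, a gene of the neck and upper trunk, came closest, at 2.76 and 3.31 TPM in control libraries against 2.11 and 1.68 TPM after exercise (log2 fold change -0.48, adjusted p = 0.0501, and -0.92 with a call after median-of-ratios scaling). Hoxc9, which sets thoracic identity in motor neurons, stood at 2.16 and 3.05 TPM in control libraries against 2.08 and 1.41 TPM after exercise (-0.39, adjusted p = 0.14). Hoxc11, expressed in the hindlimb bud, stood at 2.83 and 1.94 TPM in control libraries against 1.21 and 1.79 TPM after exercise (-0.43, adjusted p = 0.11). The groups of Hoxc9 and Hoxc11 lay next to each other without overlap, and both were called after median-of-ratios scaling (-0.82 and -0.85). Hoxc6, a gene of the brachial and upper thoracic level, stood at 1.97 and 4.45 TPM in control libraries against 2.11 and 1.62 TPM after exercise (-0.50, adjusted p = 0.18). Hoxc8, which acts just below that level, stood at 0.68 and 2.31 TPM in control libraries against 1.29 and 0.72 TPM after exercise (-0.25, adjusted p = 0.54). For Hoxc6 and Hoxc8 control replicate 2 was well above control replicate 1 and the groups overlapped; without it the fold change of Hoxc8 was 0.24.

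In HoxD the 3 neighbours Hoxd8, Hoxd9 and Hoxd10 were lower in exercise. Hoxd8, a gene of the trunk mesoderm, stood at 24.05 and 30.83 TPM in control libraries against 8.42 and 16.08 TPM after exercise (log2 fold change -1.15, SE 0.29, adjusted p = 0.014). Hoxd9, which acts in the lumbosacral region and the limb, stood at 6.64 and 6.45 TPM in control libraries against 0.68 and 2.67 TPM after exercise (-1.60, SE 0.35, adjusted p = 0.0093). Hoxd10, which helps to set hindlimb motor neurons, stood at 2.25 and 2.23 TPM in control libraries, was listed at 0 in exercise replicate 1 and stood at 0.88 TPM in exercise replicate 2 (-1.24, SE 0.30, adjusted p = 0.013). As it passed the filter by its control libraries alone, Hoxd10 was bound to differ. For all 3, exercise replicate 1 was lower than exercise replicate 2, and both were under the control libraries. After median-of-ratios scaling the fold changes of Hoxd8, Hoxd9 and Hoxd10 were -1.75, -2.06 and -1.55, and all were called. Without exercise replicate 1 the fold changes were smaller, at -0.73, -1.04 and -0.79, and Hoxd8 was not called. Without exercise replicate 2 they were -1.58, -2.17 and -1.70. The call of Hoxd8 was also lost without control replicate 2. Hoxd4, at the other end of the cluster, stood at 1.86 and 0.97 TPM in control libraries against 1.41 and 2.02 TPM after exercise, which overlap (0.18, adjusted p = 0.52, and -0.20 after scaling). On the GRCm38 annotation, 39.1% of the exon bases of Hoxd4 were shared with the model Gm28230 and 13.2% with Hoxd3, and 11.8% lay opposite to the antisense gene Hoxd3os1, while for Hoxd8 and Hoxd9 no overlap was found.

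**Figure D4:**
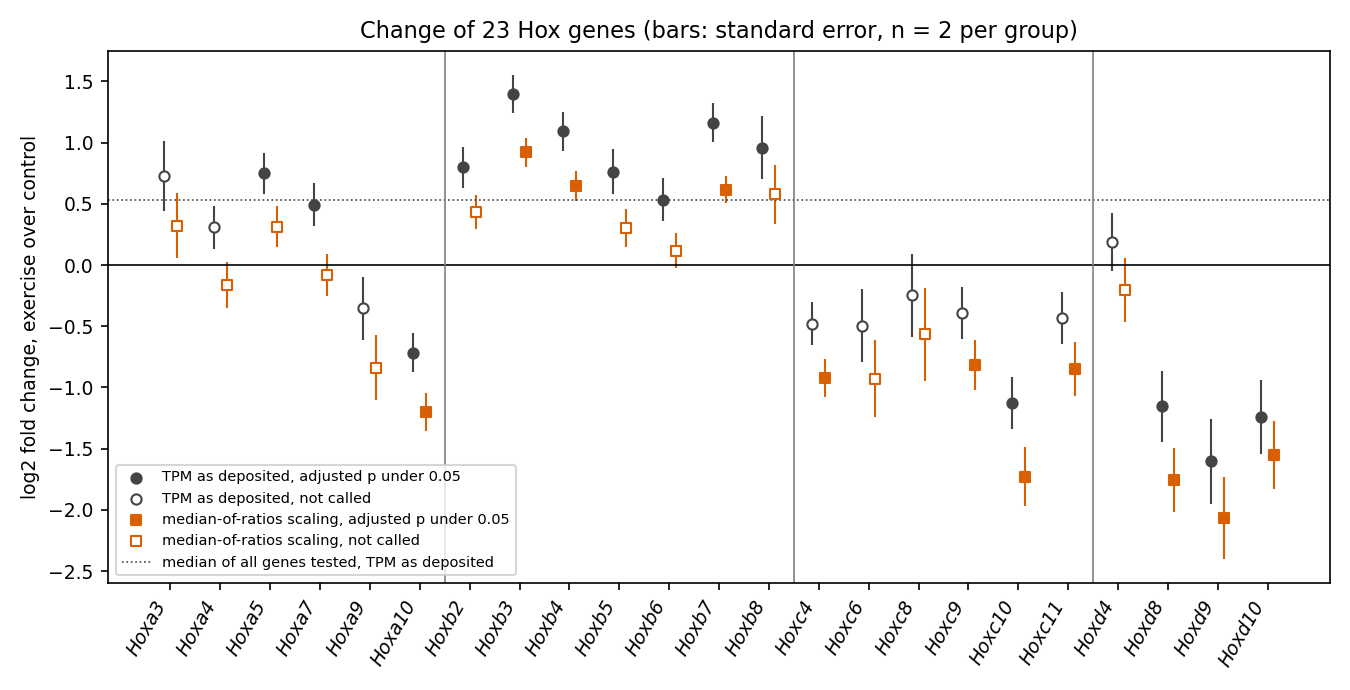
Log2 fold change of 23 of the 24 Hox genes, exercise over control, with bars for the standard error (2 libraries per group), for the deposited TPM (grey circles) and after median-of-ratios scaling (orange squares). Filled symbols have an adjusted p under 0.05, and the dotted line is the median of all genes tested on the deposited TPM (0.53). All HoxB genes shown lie above 0 on both scales, while all HoxC genes shown, Hoxa9, Hoxa10, Hoxd8, Hoxd9 and Hoxd10 lie below 0.

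Paralogs of the same number were compared as ratios of TPM within a library, which do not depend on its scaling. The ratio of Hoxb4 to Hoxc4 was 0.51 and 0.45 in control and 1.89 and 2.67 in exercise libraries, so the more abundant of the pair was Hoxc4 in control and Hoxb4 in exercise. Hoxb4 over Hoxa4 went from 0.53 and 0.69 to 1.11 and 1.58 in the same way. Hoxd8 over Hoxb8 was 37.6 and 26.4 in control and 4.27 and 4.57 in exercise libraries. Hoxc6 over Hoxb6 was 1.60 and 2.68 in control and 0.87 and 0.62 in exercise libraries. Hoxa7 over Hoxb7 was 1.99 and 2.02 in control and 1.41 and 0.93 in exercise libraries. In each of these ratios the HoxB gene gained on its paralog without overlap between groups. Ratios without a HoxB gene could also separate the groups, such as Hoxd9 over Hoxa9 (2.16 and 1.23 in control, 0.19 and 1.11 in exercise libraries). Some ratios did not separate them. Hoxb5 over Hoxa5 (1.22 and 1.20 in control, 0.92 and 1.51 in exercise libraries), Hoxc10 over Hoxa10 (5.41 and 6.96 in control, 6.37 and 4.08 in exercise libraries) and Hoxa9 over Hoxc9 (1.43 and 1.71 in control, 1.72 and 1.70 in exercise libraries) overlapped. Of the 19 ratios computed, 11 had no overlap between the groups and 8 had one, counting 2 ratios to Hoxd10 that exercise replicate 1 could not give. For single genes, 72.8% of all tested were higher and 10.5% lower without overlap. The ratios reuse the same genes, and no such share was computed over all pairs of genes. The count is therefore not read as a result about paralogs.

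The 15 genes below 1 TPM in most libraries were Hoxa2, Hoxa6, Hoxa11, Hoxa13, Hoxb1, Hoxb9, Hoxb13, Hoxc5, Hoxc12, Hoxc13, Hoxd1, Hoxd3, Hoxd11, Hoxd12 and Hoxd13. Hoxb1, Hoxb13, Hoxc12, Hoxd1 and Hoxd12 were listed at 0 in every library. Just outside the threshold lay Hoxa2, at 0.62 and 0.60 TPM in control libraries against 0.95 and 1.49 TPM after exercise, and Hoxa6, at 0.41 and 0.62 TPM in control libraries against 1.38 and 0.85 TPM after exercise. Hoxc8 lay just inside it. Hoxa11 and Hoxd11, genes of the lower leg and forearm in the embryo, stood at 0.74 TPM or less and at 0.02 TPM or less. The genes numbered 13, which pattern the foot and hand, were at 0.34 TPM or less.

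Of 16 non-coding genes named for the Hox clusters, the 6 miRNA genes were listed at 0 throughout. Of the 10 others, 5 were tested and 2 were higher, beside 55.3% of all genes. These were Hoxaas2 (0.97 and 1.22 TPM in control libraries, 2.17 and 2.53 TPM after exercise, log2 fold change 0.68, adjusted p = 0.015) and Hoxb3os (0.57, adjusted p = 0.046). Neither was called after median-of-ratios scaling (0.29 and 0.084).

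Among the partners of Hox proteins, 7 of 9 tested genes of the Pbx, Meis and Pknox families were higher in exercise and 0 were lower, with a median log2 fold change of 0.87. Beside this, 55.3% of all genes tested were higher and 6.19% lower, with a median of 0.53. After median-of-ratios scaling the median was 0.40 and 1 of the 9, Pbx4, was called, beside 10.6% of all genes. Pbx4 passed the filter by its exercise libraries alone (0.54 and 0.31 TPM in control libraries against 1.75 and 2.26 TPM), so it was bound to differ. Pbx2 stood at 9.98 and 10.41 TPM in control libraries against 21.90 and 20.73 TPM after exercise (log2 fold change 0.99, adjusted p = 0.0031). Pknox1 stood at 3.14 and 2.88 TPM in control libraries against 6.63 and 6.01 TPM after exercise (0.87, adjusted p = 0.0050). Pknox2, the most abundant of these in control but below Pbx2 in exercise, stood at 14.10 and 18.16 TPM in control libraries against 17.85 and 16.89 TPM after exercise, which overlap (0.11, adjusted p = 0.57). Meis1 also had overlapping groups (0.02, adjusted p = 0.94).

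Chromatin regulators of Hox genes had medians close to that of all genes tested. Of 22 polycomb genes tested, 12 were higher and 1 was lower, with a median of 0.60, and of 12 trithorax genes, 11 were higher and 0 lower, also with a median of 0.60. Of all genes tested, 55.3% were higher and 6.19% lower, which is close to the polycomb count. After median-of-ratios scaling these medians were 0.02 and 0.05, with 3 polycomb genes higher and 3 lower, and 0 trithorax genes higher and 1 lower, beside 10.6% of all genes higher and 16.8% lower. Phc2, a subunit of the polycomb repressive complex that compacts chromatin, stood at 10.08 and 11.18 TPM in control libraries against 23.10 and 25.24 TPM after exercise (log2 fold change 1.11, adjusted p = 0.0029). Rnf2, the ubiquitin ligase of that complex, stood at 12.44 and 12.76 TPM in control libraries against 25.12 and 26.57 TPM after exercise (0.98, adjusted p = 0.0030). The histone-binding proteins Rbbp7 (0.62, adjusted p = 0.016) and Rbbp4 (1.03, adjusted p = 0.0032) were the most abundant. Cbx7, which reads the polycomb histone mark, went the other way, from 5.27 and 5.94 TPM in control to 3.80 and 2.92 TPM after exercise (-0.60, adjusted p = 0.022). In the trithorax list Ash2l (0.87, adjusted p = 0.0038) and Dot1l (0.92, adjusted p = 0.0057) had the smallest p, and Dpy30, a subunit of the methylating complex, was the most abundant and was not called (-0.14, adjusted p = 0.39, and lower with a call after scaling).

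The limb identity factors were at low levels. Pitx1, which directs hindlimb identity in the embryo, was at 0.11 TPM or less in every library, and Tbx5, the forelimb T-box gene, at 0.13 TPM or less. Tbx4, the hindlimb T-box gene, stood at 0.83 and 0.67 TPM in control libraries against 1.00 and 1.20 TPM after exercise (log2 fold change 0.26, adjusted p = 0.22). Of the 16 limb factors listed, 10 were tested and 8 were higher, with a median of 0.88, beside 55.3% of all genes. Tbx4, which was not called, and Tbx2, among the 8, passed the filter by their exercise libraries alone, so their direction was set by the filter. After median-of-ratios scaling 3 were higher, with a median of 0.40, beside 10.6% of all genes. Tbx15, a regulator of fast fibres and the most abundant of them, stood at 69.63 and 81.77 TPM in control libraries against 93.88 and 86.19 TPM after exercise (0.25, adjusted p = 0.15). Tbx18, a T-box gene of the limb bud and of mural cells, was higher (log2 fold change 1.21, adjusted p = 0.0029). Of the 8 genes that act above Hox genes in the embryo, Cdx1, Cdx2 and Cdx4 were at 0 in every library, and 3 of the 4 tested were higher: the retinoic acid receptor Rara (0.80, adjusted p = 0.0069), the growth factor Gdf11 (0.95, adjusted p = 0.0042) and the insulator protein Ctcf (0.45, adjusted p = 0.027). None of these 3 was called after scaling, and Ctcf changed sign (-0.16).

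Markers of some cell types that muscle holds differed between the groups, and those of others overlapped. Beside the counts that follow, 55.3% of all genes tested were higher and 6.19% lower on the deposited TPM, and 10.6 and 16.8% after median-of-ratios scaling. Of 9 myofiber markers, 7 were lower in exercise on both scales, and their summed TPM was 130300 and 140342 in control and 99586 and 82561 in exercise libraries. Of 7 satellite cell markers tested, 6 were higher, and 4 after scaling. Their sums were 70.8 and 78.0 TPM in control libraries against 167.4 and 187.2 TPM after exercise. Pax7, which defines satellite cells, stood at 1.13 and 1.52 TPM in control libraries against 2.81 and 2.76 TPM after exercise. Fibro-adipogenic progenitors are connective tissue cells of muscle, and of their 11 markers 0 were called in either direction, with 2 lower after scaling. Their sums overlapped, at 671 and 349 TPM in control libraries against 383 and 540 TPM after exercise, while the defining gene Pdgfra stood at 3.57 and 2.73 TPM against 2.23 and 1.42 TPM. Schwann cell markers had 0 of 6 called on either scale, and their sums overlapped (157.6 and 36.6 TPM against 105.8 and 57.8 TPM). Tendon markers had 2 of 7 higher on both scales, with overlapping sums (68.4 and 22.9 TPM against 58.2 and 95.3 TPM). Endothelial markers had 2 of 8 higher, and 0 higher and 1 lower after scaling (67.8 and 46.0 TPM against 73.5 and 71.9 TPM). Mural markers had 2 of 8 higher and 1 lower, and 1 and 1 after scaling. Their sums were higher in both exercise libraries (374.0 and 395.5 TPM against 829 and 954 TPM). Most of each mural sum was Acta2 alone (268.53 and 323.23 TPM against 753.59 and 870.69 TPM), so the sums do not speak for the list. Abcc9 was the mural marker called lower (22.58 and 29.32 TPM against 15.90 and 11.67 TPM). Macrophage markers had 1 of 7 lower, and 2 after scaling (56.4 and 42.7 TPM against 22.8 and 36.2 TPM). Adipocyte markers had 5 of 7 lower on each scale (369 and 750 TPM against 266 and 319 TPM). Plin1 was called only on the deposited TPM, and Fabp4 only after scaling. Retn, Cidec and Plin1 passed the filter by their control libraries alone, so these were bound to differ. The part of these cell types in the Hox differences was not tested.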

How the data were processed

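RNA of TA muscle was sequenced in 2 control and 2 exercise libraries. The authors deposited TPM for 57180 genes, made with fastp, HISAT2 and StringTie on GRCm39 by the submitters' processing notes. The labels name the Illumina Stranded mRNA Prep kit and the paper NEBNext Ultra, so whether strand was kept is not settled. TPM holds no depth, so precision is that of 2 libraries per group.

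Genes at 1 TPM or more in at least 2 libraries (13288) were fitted as log2(TPM + 1) in R 4.3.3 by limma 3.58.1 (trended eBayes, no covariate, adjusted p under 0.05 over all of them). Fold changes are on that scale, which understates those of low genes. Alternatives changed the pseudocount (0.1, 0.01), filter, scaling, fit, libraries and block. Every Hox gene passing the filter is named, except 1. That gene and 1 limb factor are not reported here, but stay in the counts and sums. In the lists of cofactors, chromatin regulators, limb factors and upstream genes the 2 members of the smallest p and the 2 of the highest mean TPM are named, with Pitx1, Tbx4, Tbx5 and the sex genes. Cell type lists are given by counts and sums, and Myh4, Pax7, Pdgfra and the other members named were picked after their values were seen. The members and lists were chosen with earlier results of these data known. Promoters come from RefSeq (GRCm38.p6), not the build of the files.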

Additional observations from a re-analysis of the deposited data

How the results depend on the processing

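The count of Hox genes higher in exercise was 10 of 24, beside 55.3% of all genes tested. It was 3 with median-of-ratios factors and 3 with quantile normalization, where 10.6 and 15.9% of all genes were higher. With no filter it was 5 of 34, beside 16.7% of all genes. With the 50 most abundant genes taken out it was 5, beside 25.9%. The share of all genes thus fell in each of these settings too. The count lower was 5, beside 6.19% of all genes, and 8 after median-of-ratios scaling, beside 16.8%. It was 1 with no filter (Hoxc10), beside 1.69% of all genes, and 4 with a pseudocount of 0.01, beside 5.89%. The share of all genes lower thus moved the same way as the Hox count in these settings. Median-of-ratios scaling moved the median of all genes by -0.52 on the log2 scale. The fold change took the other sign for Hoxa4 (-0.16) and Hoxa7 (-0.083) with median-of-ratios factors, for Hoxa4 (-0.15) and Hoxa7 (-0.038) with quantile normalization, for Hoxd4 under median-of-ratios (-0.20), quantile (-0.14), no 50 highest genes (-0.071) and 1 library left out (-0.084 without control replicate 2 to 0.45 without control replicate 1), and for Hoxc8 with 1 library left out (-0.74 without control replicate 1 to 0.24 without control replicate 2). The causes were not tested. Of the 360 fold changes under an alternative, 294 kept direction and side of the threshold and 9 changed sign. Of those that kept their sign, 44 lost the call and 13 gained it. Hoxa7 also lost its call where it changed sign. With the replicate block 10 were higher (Hoxa3 gained, Hoxa7 lost) and 5 lower, beside 55.7 and 6.25% of all genes. Same-numbered libraries did not deviate together (r = -0.05 over 13288 genes). A single correlation cannot show whether they share a batch, and the labels give them only a number.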
